A study of Homo sapiens with 12 samples.

Results

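Integrin subunits were followed as 10 genes, of 59050 genes counted in all, in A549 and NCI-H1299 (H1299), which are established human lung cancer lines. They were chosen by gene symbol, as the alpha subunits ITGA2, ITGA3, ITGA5, ITGA6 and ITGAV and the beta subunits ITGB1, ITGB3, ITGB4, ITGB5 and ITGB8, and all 10 were present in the count table of each line. Each line was sequenced as WT (wild type) and as PA200 KO, in which CRISPR/Cas9 had been used to remove PA200, the proteasome activator encoded by PSME4. Each line and genotype was a group of 3 libraries, which made 4 groups, all of polyadenylated RNA from cells grown for 48 h. The study asked how loss of PA200 alters gene expression in each line. Whether the 3 libraries of a group came from separate clones or from repeat cultures is not stated in the labels, so p-values measure only the spread between these libraries, which may be technical.

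Integrins are cell surface receptors for the extracellular matrix, each built from an alpha and a beta chain that must pair before they reach the membrane. The alpha chain largely sets the ligand: ITGA3 and ITGA6 bind laminins, ITGA2 binds collagens and laminins, ITGA5 binds fibronectin, and ITGAV binds ligands that carry the RGD motif, such as vitronectin and latent TGF-beta. ITGB1 is the common partner of many alpha chains. ITGB4 pairs with ITGA6 alone and anchors epithelial cells to the basement membrane through hemidesmosomes, and ITGB3, ITGB5 and ITGB8 are partners of ITGAV. ITGB3 also pairs with ITGA2B on platelets.

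Total counts ran from 16599401 to 40983933 per library, and every A549 knockout library was deeper (30645131 to 40983933) than every A549 wild-type library (16599401 to 21112339). The 10 integrin genes took 0.265% to 0.417% of the counts of a library. For PSME4, depth-scaled counts (CPM) came to 142, 197 and 194.5 in the A549 wild-type libraries, against 23.6, 21.1 and 17.2 after knockout. In H1299 it stood at 258, 218 and 239 in wild type and at 49.7, 54.3 and 51.3 in knockout, so all 6 knockout libraries lay below all 6 wild-type libraries. The line labels held for CDKN2A, with 0 counts in all 6 A549 libraries and 28.4 to 50.5 CPM in H1299. Of the epithelial markers, KRT7, CDH1 and EPCAM averaged 1678, 43.5 and 2.87 CPM in A549 wild type and 0.157, 0.152 and 0.0406 in H1299 wild type, where VIM, a mesenchymal intermediate filament, averaged 2567. The epithelial markers KRT8 and KRT18, also listed, were expressed in H1299 at levels that could be tested. Of the 6 markers listed, 5 were called lower and 1 higher in H1299 wild type than in A549 wild type, against 65.6% of all genes called. The leukocyte markers PTPRC and CD3E and the platelet marker GP9 had 0 counts in all 12 libraries. CPM values are scaled by the trimmed mean of M values (TMM) over the 12 libraries. They compare 1 gene between libraries, and levels of different genes are compared only as TPM, a depth-scaled transcript level, for which counts are divided by gene length.

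All 10 are protein-coding genes of GENCODE 29 on GRCh38. ITGA6 (172427354 to 172506282) and ITGAV (186590065 to 186680901) lie on the long arm of chromosome 2, plus strand. ITGB3 (47253846 to 47311816), ITGA3 (50055968 to 50090481) and ITGB4 (75721328 to 75757818) lie on the long arm of chromosome 17, plus strand. ITGB5 is on chromosome 3 (124761948 to 124901418, minus strand), ITGA2 on chromosome 5 (52989326 to 53094779, plus), ITGB8 on chromosome 7 (20330702 to 20415754, plus), ITGB1 on chromosome 10 (32900319 to 33005792, minus) and ITGA5 on chromosome 12 (54395261 to 54419460, minus).

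**Figure D1:**
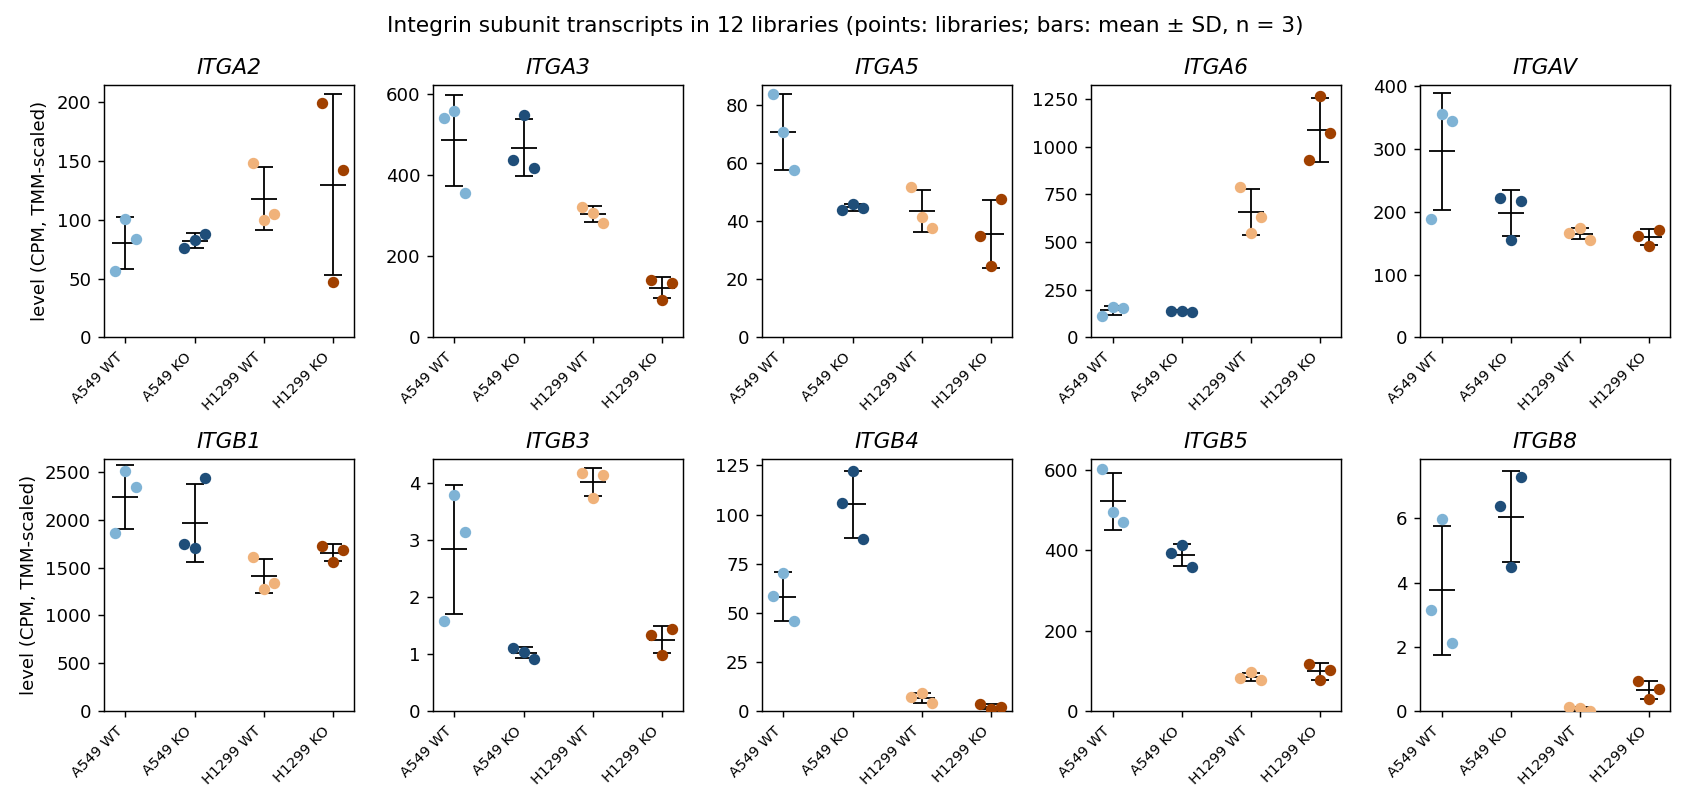
Level of each integrin subunit in every library, in TMM-scaled CPM on linear axes that start at 0, for A549 wild type (WT), A549 PA200 knockout (KO), H1299 WT and H1299 KO. Points are libraries and bars are the mean ± SD of 3 libraries. ITGA6 is highest in H1299 KO (928 to 1266 CPM), whereas ITGB4, ITGB5 and ITGB8 are higher in every A549 library than in any H1299 library.

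In wild-type cells both lines had all 5 alpha chains, in different proportions. Per length, ITGA3 was the most abundant of the 5 alpha transcripts in A549 wild type, at 155, 179 and 115 TPM, followed by ITGAV at 64.1, 136 and 132 TPM. ITGA6 followed at 66.2 ± 14.8 TPM (mean ± SD, n = 3), ITGA2 at 31.1 ± 10.2 and ITGA5 at 28.1 ± 3.66. The levels of ITGA3 and ITGAV overlapped between libraries, as did those of ITGAV and ITGA6 and those of ITGA2 and ITGA5. In H1299 wild type ITGA6 led at 404, 290.5 and 339.8 TPM, and no library of any other alpha chain came near it. ITGA3 stood at 107 ± 4.93 TPM, ITGAV at 69.0 ± 3.57, ITGA2 at 51.1 ± 10.4 and ITGA5 at 19.7 ± 2.80, and none of these neighbours overlapped. As a share of the 5 alpha transcripts, ITGA3 made up 39.3% ± 9.05 in A549 wild type and 18.2% ± 1.93 in H1299 wild type, and ITGA6 made up 17.1% ± 2.14 and 58.1% ± 3.31.

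**Figure D2:**
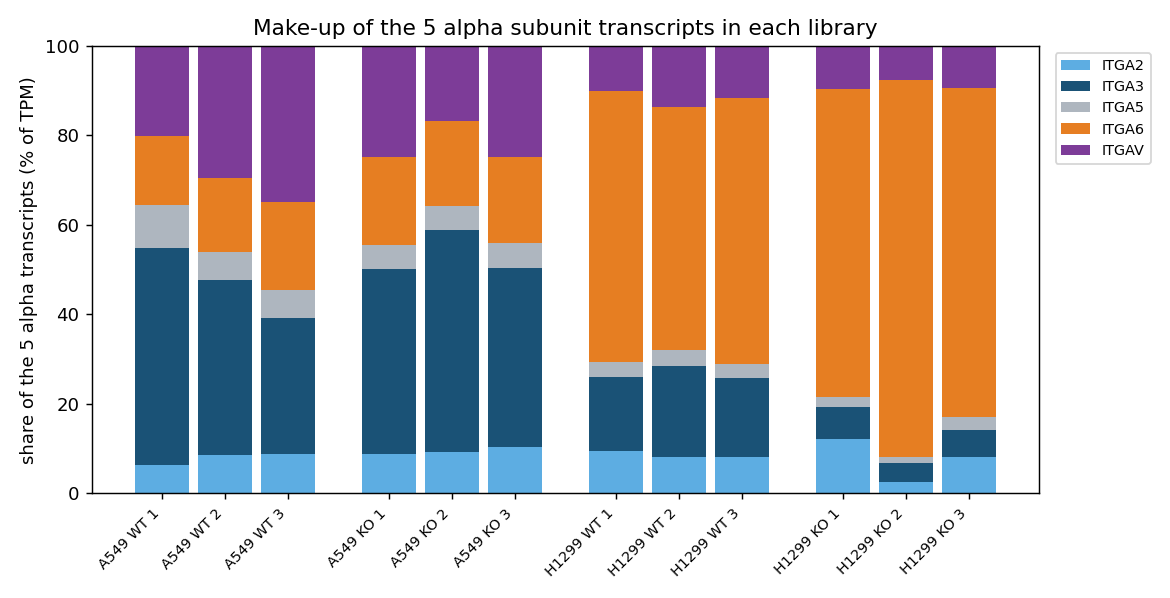
Share of each of the 5 alpha subunit transcripts (ITGA2, ITGA3, ITGA5, ITGA6 and ITGAV) in their summed TPM, in percent, 1 stacked bar per library. In A549 the ITGA3 share is 30.4% to 49.5%, whereas in H1299 the ITGA6 share is 54.3% to 60.5% in wild type and 68.9% to 84.2% in the knockout.

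The beta chains were led by ITGB1 in every library. It stood at 1134 ± 236 TPM in A549 wild type, 1031 ± 234 in A549 knockout, 804 ± 83.6 in H1299 wild type and 965 ± 46.7 in H1299 knockout, and made up 75.1% to 95.4% of the 5 beta transcripts. The 5 alpha chains summed to 0.343 ± 0.031 TPM per TPM of ITGB1 in A549 wild type and to 0.735 ± 0.009 in H1299 wild type. No library of either genotype therefore had as much of these alpha transcripts as of ITGB1, the highest value being 0.888 in H1299 knockout replicate 2. ITGA4, another partner of ITGB1 given further on, is not in this sum. ITGB5 was the only other beta chain above 100 TPM in any group, at 244 ± 15.7 TPM in A549 wild type and 45.5 ± 5.80 in H1299 wild type. ITGB4 stood at 26.1 ± 5.89 TPM in A549 wild type and at 3.42 ± 1.32 in H1299 wild type. ITGB3 stayed at or below 3.30 TPM and ITGB8 at or below 1.54 TPM in all 12 libraries.

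Compared between the wild-type lines with edgeR's quasi-likelihood test, 8 of the 10 subunits passed an adjusted p under 0.05, as did 65.6% of all genes tested (31.8% higher and 33.7% lower in H1299), a share not far from that of the subunits. ITGA6 was the only one of the 8 that was higher in H1299, with 657 ± 121 CPM against 142 ± 23.3 in A549, a 4.63-fold difference (log2 2.21, SE 0.16, adjusted p = 7.71e-08). The 7 lower ones included the beta chains ITGB4, ITGB5 and ITGB8. ITGB4, the hemidesmosomal chain, stood at 11.7% of the A549 level (log2 -3.09, SE 0.32, adjusted p = 1.91e-06), and ITGB5, a vitronectin receptor chain, at 16.4% (-2.61, SE 0.16, adjusted p = 1.61e-08). ITGB8, a chain of the receptor that activates latent TGF-beta, had 50, 122 and 38 counts in A549 wild type and 4, 3 and 0 in H1299 wild type (-5.50, SE 0.60, adjusted p = 3.21e-06). ITGAV (-0.84), ITGA5 (-0.70), ITGA3 (-0.68) and ITGB1 (-0.67) were lower by less than 2-fold, with adjusted p between 0.0016 and 0.00924. ITGA2 (0.55, SE 0.37, adjusted p = 0.207) and ITGB3 (0.49, SE 0.26, adjusted p = 0.116) did not pass, and their libraries overlapped between lines. ITGB3 passed without A549 wild-type replicate 2 (adjusted p = 0.0419) and ITGA2 without H1299 knockout replicate 2, which enters through the shared spread (adjusted p = 0.0354). The median over the 10 subunits was -0.69, against -0.02 over all genes.

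The same contrast between the knockout lines called 5 of the 10 subunits, against 68% of all genes (33.5% higher and 34.5% lower). ITGA6 was again higher in H1299 (log2 2.98, SE 0.17), and ITGB4 (-5.51, SE 0.36), ITGB8 (-3.15, SE 0.43), ITGB5 (-1.97, SE 0.16) and ITGA3 (-1.93, SE 0.19) were lower, with adjusted p between 5.64e-09 and 2.22e-05. ITGAV (-0.31, SE 0.20, adjusted p = 0.184), ITGA5 (-0.33, SE 0.21, adjusted p = 0.175) and ITGB1 (-0.24, SE 0.15, adjusted p = 0.163), called between the wild-type lines, did not pass between the knockout lines. Whether these 3 line differences themselves differ is the test of the knockout effect between lines given further on, where none of the 3 passed.

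**Figure D3:**
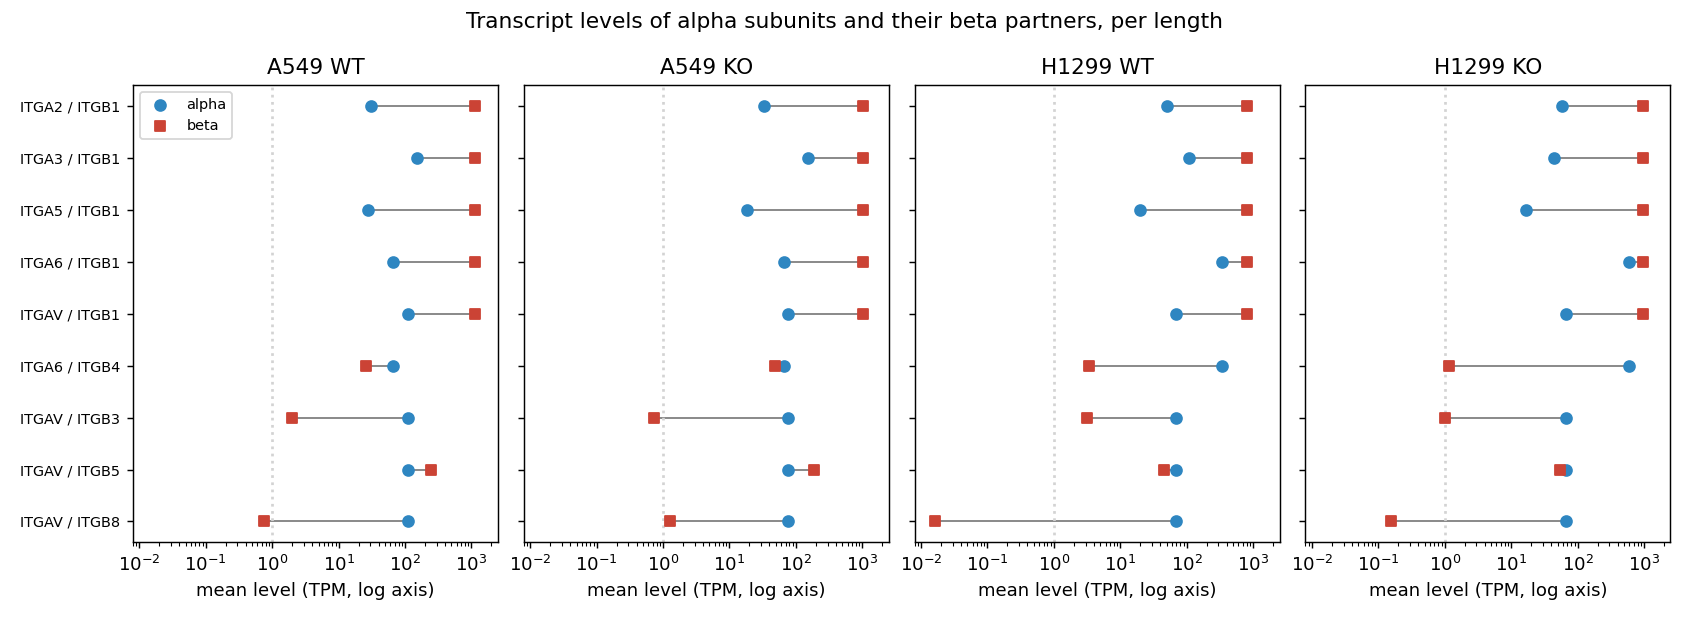
Mean TPM (log axis, n = 3) of the alpha subunit (circles) and the beta subunit (squares) of 9 known receptor pairs in each of the 4 groups, with the dotted line at 1 TPM. The distance between the symbols is the imbalance of a pair: ITGB1 exceeds each of its 5 alpha partners in every group, ITGA6 exceeds ITGB4 most in H1299, and ITGB5 is above ITGAV in A549 and slightly below it in H1299.

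Set against their beta partners, some pairs had both chains in quantity and in others 1 chain was scarce. The laminin receptor ITGA6-ITGB4 had both chains in A549, with 2.60 ± 0.76 ITGA6 per ITGB4 in wild type, whereas in H1299 wild type there were 114 ± 51.2 ITGA6 transcripts per ITGB4. ITGA6-ITGB1, the other laminin receptor of ITGA6, was the most balanced ITGB1 pair in H1299 wild type, where ITGA6 reached 42.7% ± 2.83 of ITGB1, against 5.83% ± 0.17 in A549 wild type. For ITGA3-ITGB1, another laminin receptor, ITGA3 stood at 13.6% ± 4.26 of ITGB1 in A549 wild type and 13.3% ± 1.29 in H1299 wild type, values that overlapped. The vitronectin receptor ITGAV-ITGB5 had ITGB5 in excess in A549 wild type, with 0.462 ± 0.187 ITGAV per ITGB5, and ITGAV in excess in H1299 wild type, with 1.53 ± 0.11. The lower partner of ITGAV-ITGB3 was ITGB3 at 1.98 ± 0.88 TPM in A549 wild type and 3.13 ± 0.19 in H1299 wild type. The lower partner of ITGAV-ITGB8 was ITGB8 at 0.755 ± 0.427 and 0.0163 ± 0.0149 TPM. Transcript ratios do not give the amounts of assembled receptor, which were not measured.

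ITGB1 has partners outside these 10 genes. ITGA4, which binds fibronectin and VCAM1, stood at 102, 91.5 and 104 TPM in H1299 wild type and at 0.312, 0.546 and 0.112 TPM in A549 wild type (log2 difference 8.04, SE 0.75, adjusted p = 7.96e-07). It thus lay close to ITGA3 (107 ± 4.93 TPM) in H1299 wild type. ITGB6, an epithelial partner of ITGAV, stayed at or below 5.65 TPM in all 12 libraries and at or below 0.971 in H1299.

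Among the laminin receptor chains in H1299 knockout, ITGA6 was called higher and ITGA3 and ITGB4 lower, while ITGA2 and ITGB1 were not called. Of the 10 subunits 5 passed the test, against 8.84% of all genes tested: ITGA6 and ITGB8 rose (4.66% of all genes were higher) and ITGA3, ITGB3 and ITGB4 fell (4.18% were lower). ITGB8 entered the test through its knockout libraries, having 4, 3 and 0 counts in wild type, so its passing the filter and its direction are not independent. It had no adjusted p with DESeq2, with thinned counts or with a minimum of 1 CPM in 3 libraries, where the count of subunits called was 4. In each of these 5 the 3 knockout libraries lay on 1 side of the 3 wild-type libraries, as in 30.1% of all genes. The median log2 fold change was 0.05 over the 10 subunits and -0.003 over all genes, since members moved both ways. In bulk libraries a change in the share of cells that express a subunit and a change in RNA per cell cannot be told apart.

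ITGA3 had 323, 308 and 283 CPM in H1299 wild type and 142, 93.2 and 134 in the knockout. All knockout libraries lay far below the lowest wild-type library. The knockout stood at 40.5% of wild type, a log2 fold change of -1.31 (SE 0.14, adjusted p = 0.00205). ITGA6 had 788.5, 549.6 and 633 CPM in wild type and 928, 1266 and 1071 in the knockout, with replicate 2 of the knockout the highest and replicate 2 of wild type the lowest. It rose 1.66-fold (log2 0.73, SE 0.14, adjusted p = 0.0167), and this did not pass without wild-type replicate 3 (adjusted p = 0.0585) or without knockout replicate 3 (adjusted p = 0.0582). AC078883.1, annotated on the opposite strand of ITGA6, held 4.93% and 5.09% as many counts as ITGA6 in the genotypes and rose with it (0.78, adjusted p = 0.0172). Whether the counting kept strands apart is not given in the sources used here. ITGA2 had 149, 99.9 and 105 CPM in wild type and 199.5, 47.2 and 143 in the knockout. The knockout libraries lay on both sides of wild type, and the fold change of 0.15 (SE 0.40, adjusted p = 0.862) did not pass. ITGA5 had 51.7, 41.5 and 37.7 CPM in wild type and 34.9, 24.5 and 47.7 in the knockout (-0.29, SE 0.21, adjusted p = 0.432), and ITGAV had 165.5, 174 and 156 against 162, 146 and 170.2 (-0.05, SE 0.08, adjusted p = 0.743). Both overlapped between genotypes. Among the knockout libraries, replicate 2 held the lowest level of all 4 alpha chains other than ITGA6 and the highest level of ITGA6.

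Among the beta chains, ITGB4 had 7.04, 9.23 and 4.0 CPM in H1299 wild type, from 213, 322 and 90 counts, and 3.56, 1.28 and 1.98 in the knockout, from 110, 31 and 63 counts. The lowest wild-type library was just above the highest knockout library. It fell to 33.9% of wild type (log2 -1.56, SE 0.37, adjusted p = 0.0337), and missed the threshold when wild-type replicate 1 (adjusted p = 0.0612), wild-type replicate 2 (0.0761), knockout replicate 2 (0.0888) or knockout replicate 3 (0.122) was left out. GALK1, which lies on the opposite strand and overlaps ITGB4, stood at -0.10 (adjusted p = 0.781). It held 89.9% as many counts as ITGB4 in wild type and 255% in the knockout. Whether the 2 genes share reads was not tested, so the size of the ITGB4 change is uncertain. ITGB3 had 4.16, 3.73 and 4.13 CPM in wild type and 1.33, 0.99 and 1.44 in the knockout, 349 and 111 counts in all, with a wide gap between the groups. It fell to 31.7% (log2 -1.66, SE 0.18, adjusted p = 0.00209). The gene AC068234.1 overlaps ITGB3 on the same strand and held 103% as many counts in wild type and 239% in the knockout. It stood at -0.44 (adjusted p = 0.0845), and reads of both genes may have been assigned to either, so the size of the ITGB3 change is uncertain. ITGB8 had 4, 3 and 0 counts in wild type and 29, 9 and 22 in the knockout. All knockout libraries were higher, but at no more than 0.939 CPM, and 0 counts in wild-type replicate 3 allow up to 0.133 CPM. The ratio of the depth-scaled counts was 8.63, with a 95% counting interval of 3.94 to 22.4 that covers counting error only (fitted log2 3.04, SE 0.61, adjusted p = 0.0186). ITGB8 passed the filter on low counts only through the knockout libraries, and it missed the threshold when knockout replicate 1 (adjusted p = 0.0511) or knockout replicate 3 (0.0656) was left out.

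The 2 most abundant beta chains did not pass in H1299. ITGB1 had 1610, 1278 and 1341 CPM in wild type and 1729, 1559 and 1680 in the knockout. The groups overlapped, with wild-type replicate 1 above knockout replicate 2 (log2 0.23, SE 0.09, adjusted p = 0.144). Without that wild-type library ITGB1 passed (0.33, adjusted p = 0.0367). ITGB5 had 82.1, 97.5 and 76.8 CPM in wild type and 118, 77.2 and 102 in the knockout (0.22, SE 0.15, adjusted p = 0.404), again with overlap.

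**Figure D4:**
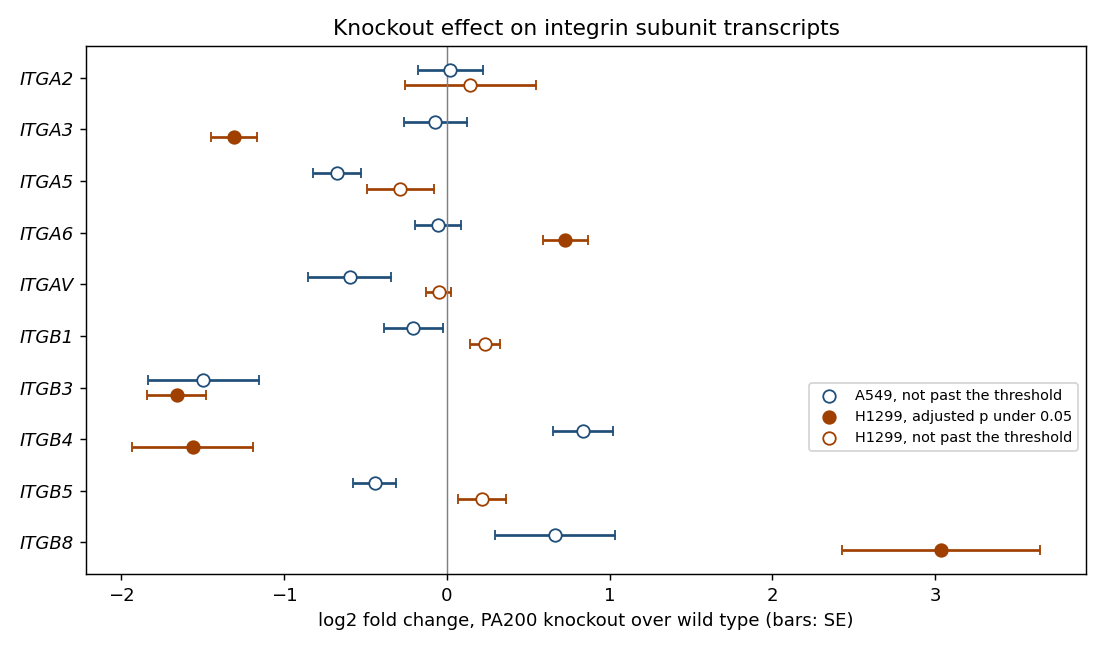
Log2 fold change of each integrin subunit, PA200 knockout over wild type, in A549 (blue) and H1299 (brown), with bars of 1 SE from edgeR's quasi-likelihood fit. Filled symbols passed an adjusted p under 0.05. The 5 filled symbols, ITGA3, ITGB3 and ITGB4 below 0 and ITGA6 and ITGB8 above 0, are all H1299, and ITGB4 lies on opposite sides of 0 in the lines.

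In A549 none of the 10 subunits passed the edgeR quasi-likelihood test in the knockout, against 2.14% of all genes (0.99% higher and 1.15% lower). At an unadjusted p under 0.05 there were 5 of 10, against 19.1% of all genes. DESeq2 called 4 of the 10, against 1540 of 20093 genes, and limma-voom called none, against 294. In 4 subunits the genotypes did not overlap, as in 25.5% of all genes. The median log2 fold change was -0.14 over the 10 and -0.01 over all genes. The deeper sequencing of the A549 knockout libraries moves with genotype. With all libraries thinned to the depth of the shallowest the count was again 0.

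ITGB4 had 58.7, 70.3 and 45.7 CPM in A549 wild type and 106, 122 and 87.5 in the knockout. All knockout libraries were above all wild-type libraries (log2 0.84, SE 0.19, adjusted p = 0.0596, not past the threshold). ITGA5 had 84.1, 70.7 and 57.7 CPM in wild type and 43.9, 46.1 and 44.6 in the knockout. The wild-type libraries were spread and all above the narrow range of the knockout (-0.67, SE 0.15, adjusted p = 0.0574). ITGB3 had 25, 77 and 56 counts in wild type and 33, 31 and 37 in the deeper knockout libraries, or 1.58, 3.78 and 3.14 CPM against 1.11, 1.04 and 0.921 (-1.49, SE 0.34, adjusted p = 0.0628). Wild-type replicate 1 was close to the knockout. Without that library ITGB3 was the 1 subunit called, and without wild-type replicate 3 it was ITGA5. The overlapping gene AC068234.1 held 171% as many counts as ITGB3 in wild type and stood at -0.88 (adjusted p = 0.0748). ITGB5 had 602, 495 and 469.8 CPM in wild type and 393, 413 and 358 in the knockout, with no overlap (-0.44, SE 0.13, adjusted p = 0.121).

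The other 6 subunits overlapped between genotypes in A549. ITGAV had 188, 355 and 344 CPM in wild type and 221, 155 and 217.5 in the knockout, with wild-type replicate 1 among the knockout values (log2 -0.60, SE 0.25, adjusted p = 0.25). ITGA6 had 115, 157 and 153 CPM against 139.8, 140.4 and 134.5 (-0.05, SE 0.14, adjusted p = 0.874). Both genes lie on the long arm of chromosome 2, where 85.2% of 756 tested genes had a log2 fold change below 0 in A549 and the median was -0.45. With every library centred on the median of each chromosome arm, ITGA6 moved to 0.39 (adjusted p = 0.164) and ITGAV to -0.15 (adjusted p = 0.795). In H1299 the median of this arm was 0.02, and ITGA6 remained past the threshold after centring (0.70, adjusted p = 0.0138).

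ITGA3 had 543, 559 and 358 CPM in A549 wild type and 439, 548.5 and 417 in the knockout (-0.07, SE 0.19, adjusted p = 0.878). ITGA2 had 56.7, 101 and 83.4 CPM against 75.8, 83.0 and 88.2 (0.02, SE 0.20, adjusted p = 0.969). ITGB1 had 1862, 2503 and 2343 CPM against 1744, 1709 and 2434 (-0.20, SE 0.18, adjusted p = 0.579), the highest knockout library being replicate 3. ITGB8 had 3.15, 5.99 and 2.13 CPM against 6.37, 4.49 and 7.29 (0.67, SE 0.37, adjusted p = 0.376). In each of these 4 the range of the wild-type libraries was wider than the distance between the means.

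The knockout effect was then compared between lines directly, in 1 fit over the 12 libraries in which 3.48% of all genes differed (1.97% with a higher and 1.52% with a lower effect in H1299). Of the 10 subunits 2 passed, both with a lower effect in H1299. ITGB4 had a log2 difference of -2.42 (SE 0.45, adjusted p = 0.0137), its 3 knockout libraries being higher than wild type in A549 and lower in H1299. ITGA3 differed by -1.25 (SE 0.26, adjusted p = 0.0225), its effect being -0.07 in A549 and -1.31 in H1299. The ITGA3 difference did not pass without A549 knockout replicate 2 (adjusted p = 0.05), H1299 wild-type replicate 1 (0.0547), H1299 wild-type replicate 2 (0.0558) or H1299 knockout replicate 2 (0.0543). ITGA6 (0.77, SE 0.22, adjusted p = 0.074), ITGB5 (0.64, SE 0.21, adjusted p = 0.122) and ITGB8 (2.35, SE 0.80, adjusted p = 0.13) did not pass. Without A549 wild-type replicate 1, ITGA6 (0.91, adjusted p = 0.0224) and ITGAV (0.79, adjusted p = 0.0347) passed as well. With every library centred on the median of each chromosome arm, ITGA6 stood at 0.315 (adjusted p = 0.466) and ITGAV at 0.0741 (0.958). DESeq2 and the edgeR fit without a low-count filter each called 4 subunits, adding ITGA6 and ITGB8. Of all genes they called 1706 and 1239, against 788 in the main fit. With all 12 libraries no call was made for ITGAV (0.53, adjusted p = 0.355), ITGB1 (0.42, 0.318), ITGA5 (0.37, 0.557), ITGB3 (-0.18, 0.878) and ITGA2 (0.10, 0.975). ITGB3, past the threshold in H1299 and not in A549, stood at -1.66 and -1.49, and no difference between these values was detected.

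By group, ITGA6 ranked H1299 knockout, H1299 wild type and then both A549 genotypes, which overlapped. For ITGA3 the order was A549 wild type and knockout, which overlapped, then H1299 wild type and H1299 knockout, each below all libraries of the group before it. ITGB4 ranked A549 knockout, A549 wild type, H1299 wild type and H1299 knockout with no overlap at any step. ITGB5 ranked A549 wild type, A549 knockout and then both H1299 genotypes, which overlapped. ITGB8 was highest in the A549 genotypes, which overlapped, then H1299 knockout, then H1299 wild type. ITGB3 was highest in the wild-type groups, which overlapped, and lowest in the knockout groups, which also overlapped. ITGA5 stood in A549 wild type above all libraries of the other 3 groups, which overlapped, and ITGAV there above all H1299 libraries. ITGA2 in H1299 wild type lay above A549 knockout, with overlap at the other steps, and for ITGB1 each group overlapped its neighbour.

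Applied to the pairs, 17 comparisons of the alpha to beta ratio between knockout and wild type could be made, and in 8 the genotypes did not overlap. No background was computed for ratios, and among single genes 25.5% in A549 and 30.1% in H1299 did not overlap. With 3 against 3 libraries the exact two-sided permutation test cannot go below p = 0.1, and those 8 had p = 0.1, or 0.213 adjusted over the 17, so none passed. In H1299, ITGA6 per ITGB1 went from 42.7% ± 2.83 to 60.9% ± 12.8, and ITGA3 per ITGB1 from 13.3% ± 1.29 to 4.53% ± 0.75. The ITGA3 share of the 5 alpha transcripts went from 18.2% ± 1.93 to 5.77% ± 1.48 and the ITGA6 share from 58.1% ± 3.31 to 75.6% ± 7.80, the latter at 68.9%, 84.2% and 73.6% in the knockout libraries. The log2 ratio of ITGA6 to ITGB4 was 9.07 ± 0.96 in H1299 knockout against 6.72 ± 0.72 in wild type, and 0.46 ± 0.21 in A549 knockout against 1.34 ± 0.40, so it went up by 2.35 in H1299 and changed by -0.88 in A549. In A549 knockout ITGA6 and ITGB4 stood at 66.7 ± 1.77 and 48.9 ± 6.75 TPM, closer to each other than in any other group. ITGAV per ITGB3 was higher by 0.84 in A549 knockout and by 1.64 in H1299 knockout, and ITGAV per ITGB8 differed by -1.33 in A549 knockout. The ratio could not be formed for ITGAV-ITGB8 in H1299, where 1 library had 0 ITGB8 counts. For ITGAV-ITGB5 the genotypes overlapped in both lines (log2 -1.22 ± 0.70 and -1.34 ± 0.37 in A549, 0.61 ± 0.10 and 0.36 ± 0.23 in H1299).

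The upstream windows of 3 of these genes are shown because ITGA6 and, from very low counts, ITGB8 were called higher in H1299 knockout and ITGAV was not called, although ITGA6 and ITGAV share a chromosome arm and ITGAV and ITGB8 share a receptor. Each runs from 250 bases before to 50 bases after a transcript start annotated by RefSeq on GRCh38.p14, 5′ to 3′ on the plus strand, at chr2:172427086-172427385 for ITGA6, chr2:186589806-186590105 for ITGAV and chr7:20330650-20330949 for ITGB8. Capitals mark matches on either strand to any of 4 motifs: GGGCGG (the GC box), TGANTCA (the AP-1 element), CACGTG (the E-box) and TATAAA (the TATA box). No match in these 3 windows overlapped another. RefSeq lists 2 windows each for ITGA6 and ITGAV and 1 for ITGB8, and the one nearest to the GENCODE gene start is shown.
ITGA6: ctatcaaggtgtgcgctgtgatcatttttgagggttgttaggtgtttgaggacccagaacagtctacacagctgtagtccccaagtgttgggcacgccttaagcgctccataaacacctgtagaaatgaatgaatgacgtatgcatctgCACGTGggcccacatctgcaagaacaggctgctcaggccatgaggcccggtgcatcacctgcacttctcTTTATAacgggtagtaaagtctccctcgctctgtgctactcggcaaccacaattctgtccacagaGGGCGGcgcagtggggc
ITGAV: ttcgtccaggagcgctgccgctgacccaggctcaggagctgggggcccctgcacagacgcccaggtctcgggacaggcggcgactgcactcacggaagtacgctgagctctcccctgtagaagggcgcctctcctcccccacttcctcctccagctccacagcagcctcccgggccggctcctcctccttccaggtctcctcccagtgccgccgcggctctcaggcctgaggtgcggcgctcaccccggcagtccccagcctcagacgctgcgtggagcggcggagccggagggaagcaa
ITGB8: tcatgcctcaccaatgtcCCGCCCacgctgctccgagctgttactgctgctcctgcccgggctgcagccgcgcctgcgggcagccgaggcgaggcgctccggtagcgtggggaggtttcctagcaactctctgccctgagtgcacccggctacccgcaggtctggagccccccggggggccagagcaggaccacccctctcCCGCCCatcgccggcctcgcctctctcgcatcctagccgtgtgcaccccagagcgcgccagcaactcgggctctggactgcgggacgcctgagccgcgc
The ITGA6 window held 1 GGGCGG, 1 CACGTG and 1 TATAAA, the last 2 being found in 7.26% and 11.5% of 35116 windows of 300 bases. The ITGB8 window held 2 GGGCGG, a motif found in 45% of the windows, and the ITGAV window held none of the 4. GC content was 53% for ITGA6, 70.7% for ITGAV and 71.7% for ITGB8, against a median of 58.7% over all windows. Windows were matched for 7 of the 10 genes. Of the other 4, ITGA2 held 4 GGGCGG, ITGB1 3 and ITGB5 2, and ITGA5 held 1 GGGCGG and 1 TGANTCA, found in 7.71% of windows. Matches describe letters in these windows and were not tested against the expression data.

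There were 16 other integrin subunits. In A549 14 were tested and 1 passed with edgeR, against 2.14% of all genes. DESeq2 called 3, against 1540 of 20093 genes, and 6 (42.9%) had an unadjusted p under 0.05, against 19.1% of all genes. The 1 called was ITGA9, which fell (from 0.801 ± 0.075 to 0.225 ± 0.054 CPM, log2 -1.80, SE 0.34, adjusted p = 0.0458). ITGA9 passed the filter on low counts only through its wild-type libraries, so its passing the filter and its direction are not independent. ITGA4 stood at 0.882, 1.37 and 0.280 CPM in A549 wild type and 0.737, 12.2 and 7.67 in the knockout, and did not pass. In H1299, of 10 tested, 2 passed with edgeR and 2 with DESeq2, against 8.84% of all genes with edgeR and 2339 of 20194 with DESeq2. ITGA4 stood at 228 ± 16.4 CPM in wild type and rose to 284 ± 7.10 (0.32, SE 0.07, adjusted p = 0.0264), and ITGA10, a collagen-binding chain, fell from 10.6 ± 2.94 to 3.14 ± 0.70 (-1.75, SE 0.23, adjusted p = 0.00409). Their median was -0.14 in A549 and 0.20 in H1299.

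The intracellular adhesion machinery of integrins was listed as 38 genes. None of 38 tested passed in A549 with edgeR or limma-voom, and 3 did with DESeq2, against 1540 of 20093 genes. At an unadjusted p under 0.05 there were 8 (21.1%), against 19.1% of all genes. In H1299, of 34 tested with edgeR, PTK2, the focal adhesion kinase, rose (log2 0.37, SE 0.06, adjusted p = 0.0114) and 4 fell, against 8.84% of all genes called. These were the filamin FLNA, an actin crosslinker (-0.68, adjusted p = 0.0229), the scaffold BCAR1 (-0.64, 0.0104), the actinin ACTN4 (-0.43, 0.0139) and ARHGEF7 (-0.29, 0.0302). The list's median was 0.04 in A549 and -0.05 in H1299. Between the wild-type lines 11 were higher and 21 lower in H1299, where 31.8% of all genes were higher and 33.7% lower. Among the lower ones were the tensin TNS4 and the scaffold NEDD9. TNS4 had 0 counts in all 6 H1299 libraries and 11.8, 10.6 and 344 CPM in A549 wild type, where replicate 3 held most of it. NEDD9 had 142 ± 27.7 CPM in A549 wild type and 0.146 ± 0.023 in H1299 wild type.

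Of 29 matrix ligands of the integrins, some passed the edgeR test in each line. In H1299, of 18 tested, 2 rose and 5 fell, against 8.84% of all genes called in either direction. Fibronectin (FN1), the ligand of ITGA5 and ITGA4, had 39.1, 40.1 and 31.4 CPM in wild type and 12.85, 10.6 and 10.6 in the knockout, with a clear gap (log2 -1.70, SE 0.13, adjusted p = 0.000319). The laminin chain LAMB1 fell from 8.76 ± 2.80 to 2.63 ± 0.50 CPM (-1.74, SE 0.25, adjusted p = 0.0059). ADAM23, a membrane protein that binds ITGAV-ITGB3, had 0.462, 0.430 and 0.356 CPM in wild type and 3.63, 7.55 and 1.98 in the knockout (3.35, adjusted p = 0.0071). In A549, of 25 tested, 3 rose and 3 fell, against 2.14% of all genes. ADAM23 fell from 18.9 ± 1.62 to 0.917 ± 0.656 CPM (-4.34, adjusted p = 0.0122), the opposite of H1299, with a difference between lines of 7.67 (SE 0.76, adjusted p = 0.000343). The fibrillin FBN1 (0.91, adjusted p = 0.0218) and tenascin TNC (3.65, 0.0435) rose and the TGF-beta binding protein LTBP1 fell (-1.0, 0.0455). ADAM23 and LTBP1 both lie on chromosome 2. The A549 shift given above (median -0.45) is for the long arm only, and its part in these falls was not tested. FN1 in A549 ranged from 380.5 to 2850 CPM among wild-type libraries and from 554 to 1486 in the knockout, and did not pass. The collagen IV chain COL4A1 had 76.3 ± 51.8 CPM in A549 wild type and 0 counts in all 6 H1299 libraries, COL4A2 had 1 count there, and the laminin chain LAMA3 stood at 117 ± 53.1 CPM in A549 wild type and 0.171 ± 0.082 in H1299 wild type.

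Of 13 hemidesmosome and tetraspanin genes, none passed in A549 with edgeR or limma-voom. There 2 (15.4%) had an unadjusted p under 0.05, against 19.1% of all genes, and DESeq2 called 1, against 1540 of 20093. In H1299 4 fell and none rose with edgeR, against 4.18% of all genes lower. DESeq2 called 6 in H1299, against 2339 of 20194 genes. The plakin PLEC, which links ITGB4 to keratins, fell by 0.74 (SE 0.15, adjusted p = 0.0201). The tetraspanins CD82 (-1.08, adjusted p = 0.0163) and CD9 (-0.39, 0.0471) and the integrin-associated protein BSG (-0.50, 0.0164) fell with it. CD151, the tetraspanin that binds ITGA3 and ITGA6 tightly, had 82.3, 79.9 and 88.3 CPM in wild type and 77.2, 59.3 and 59.1 in the knockout and was not called. In H1299 wild type against A549 wild type, CD82 was higher (log2 3.94) and SLC3A2, a partner of integrin beta chains, lower (-2.36). Beside ITGB4 and PLEC, the keratins KRT8 (-1.03, adjusted p = 0.0243) and KRT18 (-0.83, 0.0172) and VIM (-0.31, 0.0373) also fell in H1299 knockout. These were the 3 that could be tested there of the 6 line markers listed, which are epithelial genes and VIM. Their part in the integrin results was not tested.

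Over the 12 libraries, with the mean of each line removed, the genes whose log2 CPM ran most like ITGA3 among 18007 were LMNA (Pearson r 0.99), SH3TC2 (0.956) and MELTF (0.952). LMNA, which encodes the A-type nuclear lamins, stood at 489.5, 438.5 and 413 CPM in H1299 wild type and 240, 170 and 208 in the knockout (log2 -1.11, SE 0.12, adjusted p = 0.00205), while in A549 it stood at -0.14 (adjusted p = 0.713). SH3TC2 fell from 21.9 ± 6.66 to 0.718 ± 0.558 CPM and MELTF from 89.0 ± 16.4 to 37 ± 10.4 in H1299. For ITGA5 the closest were KCNF1 (0.938), AL358781.1 (0.926) and AC245140.2 (0.918), and KCNF1 fell in A549 knockout (-1.56, SE 0.30, adjusted p = 0.0458). These are correlations over 12 libraries that share their genotype contrast and, within a group, their source, and they describe likeness only.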

How the data were processed

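The authors deposited raw counts per gene, as 1 table per line with 59050 symbols and 6 libraries. The RNA input was 1 µg and the kit selected poly-A RNA and kept strand, per the labels' protocols. Base call conversion used bcl2fastq 2.20.0.422 and the named build is GRCm38.p6 per the submitters' processing notes, which is of mouse although the gene symbols are human. The aligner, counter and strand setting are not given in the sources used here. Of the symbols 56159 (95.1%, with 99.1% of counts) matched GENCODE 29 once, which gave coordinates and exon lengths for TPM. Genes were kept by filterByExpr (minimum count 10) and tested in R 4.3.3 with edgeR 4.0.16 (TMM, quasi-likelihood, Benjamini-Hochberg over all genes tested, threshold 0.05). Knockout was tested within each line, and lines and the difference of effects in 1 fit of 12 libraries. Levels are means ± SD of 3 libraries. Alternatives were DESeq2 1.42.0, limma-voom (limma 3.58.1), RLE or no scaling, no filter or a minimum of 1 CPM in 3 libraries, thinning, centring within chromosome arms, other sets of libraries, transcript length and each library left out. Scripts were tested on simulated data. The members, the lists and the rule for named genes (all members, and up to 4 called genes per list and contrast by adjusted p, or by size between lines) were chosen with earlier results of these data known. A matrix ligand that the rule names is not reported here. FN1, ITGA4, CD151 and ITGB6 are also given for their roles, outside that rule where they were not called, and were chosen after their values were seen. Likeness used log2(CPM + 0.5). PECAM1, CDH5 and VWF (endothelium) stayed at or below 0.503 CPM and COL1A1, COL3A1, PDGFRB and DCN (fibroblasts) at or below 10.4 CPM in every library. Of the leukocyte list CD14, ITGAX and ITGAL reached 2.77, 3.15 and 1.37 CPM in A549 and LYZ 0.149, and of the platelet list PF4 reached 0.503 CPM and ITGA2B 4.31 in A549 and 2.72 in H1299.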

Additional observations from a re-analysis of the deposited data

Results flagged for a closer look

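The knockout effect differed between the lines for 2 subunits, by a test of the difference itself. For ITGB4 the effect in H1299 minus that in A549 was -2.42 on the log2 scale (SE 0.45, adjusted p = 0.0137, edgeR quasi-likelihood test), with 3 of 3 knockout libraries above wild type in A549 and 3 of 3 below it in H1299. It passed in each of the 20 alternative fits (adjusted p from 4.79e-06 to 0.0484). Whether ITGB4 shares reads with the overlapping gene GALK1 was not tested, so the size of this difference is uncertain. For ITGA3 the difference was -1.25 (SE 0.26, adjusted p = 0.0225), with 3 of 3 H1299 knockout libraries below wild type and overlapping libraries in A549. It did not pass without A549 knockout replicate 2 (adjusted p = 0.05), H1299 wild-type replicate 1 (0.0547), H1299 wild-type replicate 2 (0.0558) or H1299 knockout replicate 2 (0.0543).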

How the results depend on the processing

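No subunit called in a comparison changed direction under any alternative run. The 8 subunits called between wild-type lines and the 5 between knockout lines were within 1.5 times of those counts in every fit (8 to 9 and 5 to 6). In A549 the count of subunits called was 0, but 3 without a low-count filter, 4 with DESeq2 and 1 in the fit of all 12 libraries, and 0 to 1 with libraries left out in turn. In H1299 it was 5, but 4 with DESeq2, with thinned counts and with the minimum of 1 CPM, where ITGB8 had no adjusted p, and 2 to 5 with libraries left out, the 2 being without knockout replicate 3. For the difference between lines it was 2, but 4 without a filter and 4 with DESeq2 (ITGA6 and ITGB8 added), and 1 to 4 with libraries left out. It was 4 without A549 wild-type replicate 1. It was 1 without A549 knockout replicate 2, H1299 wild-type replicates 1 or 2, or H1299 knockout replicate 2. The cause was not tested. Values that changed sign were all of subunits that passed in neither fit. Centring within arms gave -0.0545 for ITGA2 and 0.392 for ITGA6 in A549, and limma-voom gave -0.053 for ITGA2 in H1299 and -0.129 in the difference. With libraries left out in turn, the A549 values spanned -0.164 to 0.217 for ITGA2, -0.236 to 0.0426 for ITGA3 and -0.171 to 0.0265 for ITGA6. The H1299 values spanned -0.313 to 0.538 for ITGA2 and -0.0959 to 0.0075 for ITGAV, and the difference spanned -0.346 to 0.502 for ITGA2 and -0.431 to 0.116 for ITGB3. The number of all genes called was less stable. In A549 it went from 430 to 1275 (no filter), 1540 (DESeq2), 235 (centred within arms), 1773 (12 libraries) and 10 to 1016 (libraries left out). In H1299 it went from 1786 to 3077 (no filter), 559 (12 libraries) and 472 to 1469 (left out). For the difference it went from 788 to 1239 (no filter), 1706 (DESeq2), 437 (centred) and 310 to 1359 (left out). With the longest transcript as length, 15 of 35 pair ratios moved beyond 1 SD, by up to 0.66, with no change of sign, and ITGAV per ITGB5 in H1299 knockout came to 0.0192. No paired analysis was possible because the labels give no replicate numbers shared between groups. Depth limits ITGB8 and ITGB3 most, with 0 to 29 and 24 to 130 counts per H1299 library.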
